A study of Homo sapiens with 60 samples.

Results

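HepG2 cells were exposed for 24 h to a water extract of Aucklandiae Radix, and the transcripts of 3 libraries at the high dose of 500 µg/mL were compared with those of 3 libraries at the low dose of 20 µg/mL. These 6 libraries were chosen by their titles from the 60 of the series, which also holds a medium dose of 100 µg/mL (3 libraries), 5 other herbal extracts, wortmannin and a DMSO vehicle. HepG2 is an established line of human hepatocellular carcinoma that keeps many liver functions but has a fetal and transformed character, so it models primary hepatocytes only in part. The labels name no engineered change of the cells. Sample codes put both doses in the same set and the vehicle in a different one, so their handling may have differed. Vehicle values are therefore given as levels, without a test. The question the comparison addresses is which transcripts depend on the dose of this herb.

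Aucklandiae Radix is the root of Aucklandia lappa, a plant known for sesquiterpene lactones such as costunolide and dehydrocostus lactone, which can bind cysteine residues of proteins. How much of these compounds this water extract held is not given in the sources used here. Many reactive compounds bind cysteines of KEAP1, the protein that otherwise marks the transcription factor NRF2 (encoded by NFE2L2) for degradation. NRF2 then binds antioxidant response elements and switches on enzymes that reduce carbonyls and quinones, make glutathione, and conjugate or export foreign compounds. In the liver this programme overlaps with drug metabolism and heme handling.

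At the high dose, 2462 of 16517 tested genes differed from the low dose (14.9%; edgeR's quasi-likelihood test, Benjamini-Hochberg adjusted p under 0.05). Of these, 1283 were higher (7.77%) and 1179 lower (7.14%). Most differences were small. The median absolute log2 fold change of the called genes was 0.32, and 89 higher genes (0.539%) and 56 lower genes (0.339%) reached 2-fold. High- and low-dose libraries did not overlap for 30.1% of all tested genes, higher in 15.3% and lower in 14.8%. The labels do not say that replicates were separate cultures, so the p-values measure the spread between these libraries, which may be technical. The genes with the largest rises included carbonyl reductases, glutathione transferases and an efflux pump. The largest falls included the metallothioneins, and nearly all mitotic genes fell together by a smaller amount.

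The libraries held 22.44 to 26.1 M counts (M, 1e6) at the high dose and 20.21 to 29.76 M at the low dose. Replicate 1 of the low dose stood apart from its fellows: the chi-square statistic per gene against replicates 2 and 3 was 53.1 and 43.4, while replicates 2 and 3 differed from each other by 4.16. Its share of mitochondrially encoded mRNA was 14.48%, against 8.405% and 9.184% in the other low-dose libraries and 9.571% to 9.976% at the high dose. Without it 1961 genes were called, 990 higher and 971 lower. Replicate 1 of the medium dose stood apart in the same way (chi-square per gene 72.26 and 48.29, mitochondrial mRNA 16.57%). HepG2 identity was checked with 13 hepatocyte and HepG2 markers, all detected, which summed to 43987 to 46253 CPM (counts per 1e6 counts) at the high dose and 47901 to 51543 CPM at the low dose. Of 8 endothelial markers KDR, EMCN and CLEC4G were at 0 in all 6 libraries, and of 9 leukocyte and macrophage markers PTPRC, CD3E and MARCO. The other members of both lists were detected. The endothelial markers summed to 3.39 to 4.02 CPM at the high dose and 4.11 to 5.54 CPM at the low dose, with PECAM1 highest. The leukocyte and macrophage markers, mostly LYZ, summed to 953 to 996 CPM and 1070 to 1087 CPM. In cells harvested in bulk, fewer cells that express a gene and less RNA per cell cannot be told apart.

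The sequences below come from the RefSeq promoter table (GRCh38.p14), which gives 250 bases before to 50 bases after each RefSeq start, and they show the elements by which the principal gene groups are commonly described. Only bases before the start are printed, in the direction of transcription. The genes and stretches were picked by hand, each holding a match, so they do not show how common the elements are. The first set holds 4 genes that were higher at the high dose, and capitals mark the core of the antioxidant response element, TGACNNNGC, on either strand. They are GCLM (chr1:93909431-93909490, minus strand), TXNRD1 (chr12:104286902-104286961, plus strand, at a RefSeq start inside the gene), EPHX1 (chr1:225825254-225825313, plus strand, 1 of its 3 starts) and ABCB6 (chr2:219219074-219219133, minus strand).
GCLM: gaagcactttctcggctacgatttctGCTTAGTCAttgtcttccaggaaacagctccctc
TXNRD1: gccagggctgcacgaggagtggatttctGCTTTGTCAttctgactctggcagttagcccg
EPHX1: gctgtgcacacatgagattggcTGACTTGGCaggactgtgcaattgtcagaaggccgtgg
ABCB6: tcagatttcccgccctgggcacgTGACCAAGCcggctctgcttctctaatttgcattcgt
Across the 7 lists of carbonyl reductases, glutathione, thioredoxin, NADPH, heme, conjugation and efflux genes, 27 of 130 promoters held this core (20.8%), against 4687 of all 35116 promoters (13.3%). The lists differed, with 38.5% for NADPH, 29.6% for conjugation and 20% each for carbonyl reductases and glutathione. The share was 15% for thioredoxin, 14.3% for efflux and 9.52% for heme, the lists of TXNRD1 and ABCB6 being the first and the last of these. Genes of these lists are often controlled by elements outside such a window, and a match is only a match of letters.

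The second set holds 2 metallothionein genes that were lower at the high dose, and capitals mark the core of the metal response element, TGCACNC or TGCGCNC, on either strand. MT2A (chr16:56608334-56608583, plus strand) had 7 such matches in 250 bases and MT1X (chr16:56682300-56682439, plus strand) had 4 in 140 bases.
MT2A: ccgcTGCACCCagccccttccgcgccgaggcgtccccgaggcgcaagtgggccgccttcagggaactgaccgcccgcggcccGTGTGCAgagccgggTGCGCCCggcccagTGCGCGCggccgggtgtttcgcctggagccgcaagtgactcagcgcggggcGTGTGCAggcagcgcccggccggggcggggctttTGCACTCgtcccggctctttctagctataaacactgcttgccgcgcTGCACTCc
MT1X: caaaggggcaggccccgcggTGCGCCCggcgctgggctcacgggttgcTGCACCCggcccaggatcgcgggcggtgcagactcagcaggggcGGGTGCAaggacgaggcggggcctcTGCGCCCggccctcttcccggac
Of 12 promoters matched to 8 genes of the metallothionein and zinc list, 6 held the core (50%), and so did 29.6% of all promoters.

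The third set holds 3 mitotic genes that were lower at the high dose. Capitals mark TTTGAA, the core of the cell cycle homology region read by the DREAM and MYB-MuvB complexes, and CCAAT, the box bound by NF-Y, on either strand. They are PLK1 (chr16:23678789-23678888, plus strand), CCNB2 (chr15:59105016-59105145, plus strand) and PRC1 (chr15:90994536-90994615, minus strand).
PLK1: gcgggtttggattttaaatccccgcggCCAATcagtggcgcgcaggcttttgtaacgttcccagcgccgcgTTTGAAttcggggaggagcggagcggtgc
CCNB2: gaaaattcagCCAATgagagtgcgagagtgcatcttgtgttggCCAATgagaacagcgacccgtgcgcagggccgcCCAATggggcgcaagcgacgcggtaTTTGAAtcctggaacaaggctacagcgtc
PRC1: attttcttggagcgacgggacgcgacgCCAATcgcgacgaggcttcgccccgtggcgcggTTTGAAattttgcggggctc
TTTGAA occurred in 22 of 38 promoters of the G2 and M phase list (57.9%), in 1 of 36 promoters of the DNA replication list (2.78%) and in 15.2% of all promoters. CCAAT occurred in 73.7% of the G2 and M phase promoters, 61.1% of the replication promoters and 34.6% of all promoters.

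Members of the list of carbonyl reductases, in which PTGR1 was counted, were among the largest rises. PTGR1 (ENSG00000106853, chromosome 9, 111549722 to 111599893 on GRCh38), which reduces the double bond of reactive aldehydes and eicosanoids, had 72.6, 73.7 and 68.6 CPM at the high dose, against 15.2, 12.3 and 14.0 CPM at the low dose. Its log2 fold change was 2.37 ± 0.09 (standard error here and below; edgeR adjusted p = 1.8e-26), or 5.16-fold, and the vehicle averaged 11.1 CPM. AKR1B10 (chromosome 7, 134527592 to 134541408, ENSG00000198074) acts on lipid aldehydes and retinal. It had 228, 229 and 228 CPM at the high dose, against 67.5, 63.4 and 64.3 CPM at the low dose (log2 fold change 1.81 ± 0.05, edgeR adjusted p = 1.9e-30). The spread within each dose was far smaller than the gap between the doses for both genes. Both are among the 15 largest rises, whose rule admitted only genes with libraries that did not overlap. AKR1C1, a reductase of steroids and dihydrodiols, averaged 2160 ± 52.5 CPM at the high dose and 686 ± 22.8 CPM at the low dose (SD, n = 3 each), and AKR1C2 averaged 995 ± 26.0 CPM and 284 ± 22.1 CPM. Reads of these near-identical copies may be split uncertainly among them. Summed over AKR1C1, AKR1C2 and AKR1C3, the level was 3266 ± 84.1 CPM at the high dose and 1036 ± 44.1 CPM at the low dose, a ratio of 3.15. NQO1, the quinone reductase, had 687, 695 and 676 CPM at the high dose, against 453, 440 and 454 CPM at the low dose (0.61 ± 0.04, edgeR adjusted p = 3.7e-15). In all, 9 of 13 tested members of the carbonyl reductase list rose and 0 fell, with a median log2 fold change of 0.61 beside 0.000 over all tested genes. The same 9-to-0 count was found without replicate 1 of the low dose. Over all tested genes 7.77% rose and 7.14% fell, which is the background for this count and for those of the lists below.

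**Figure D1:**
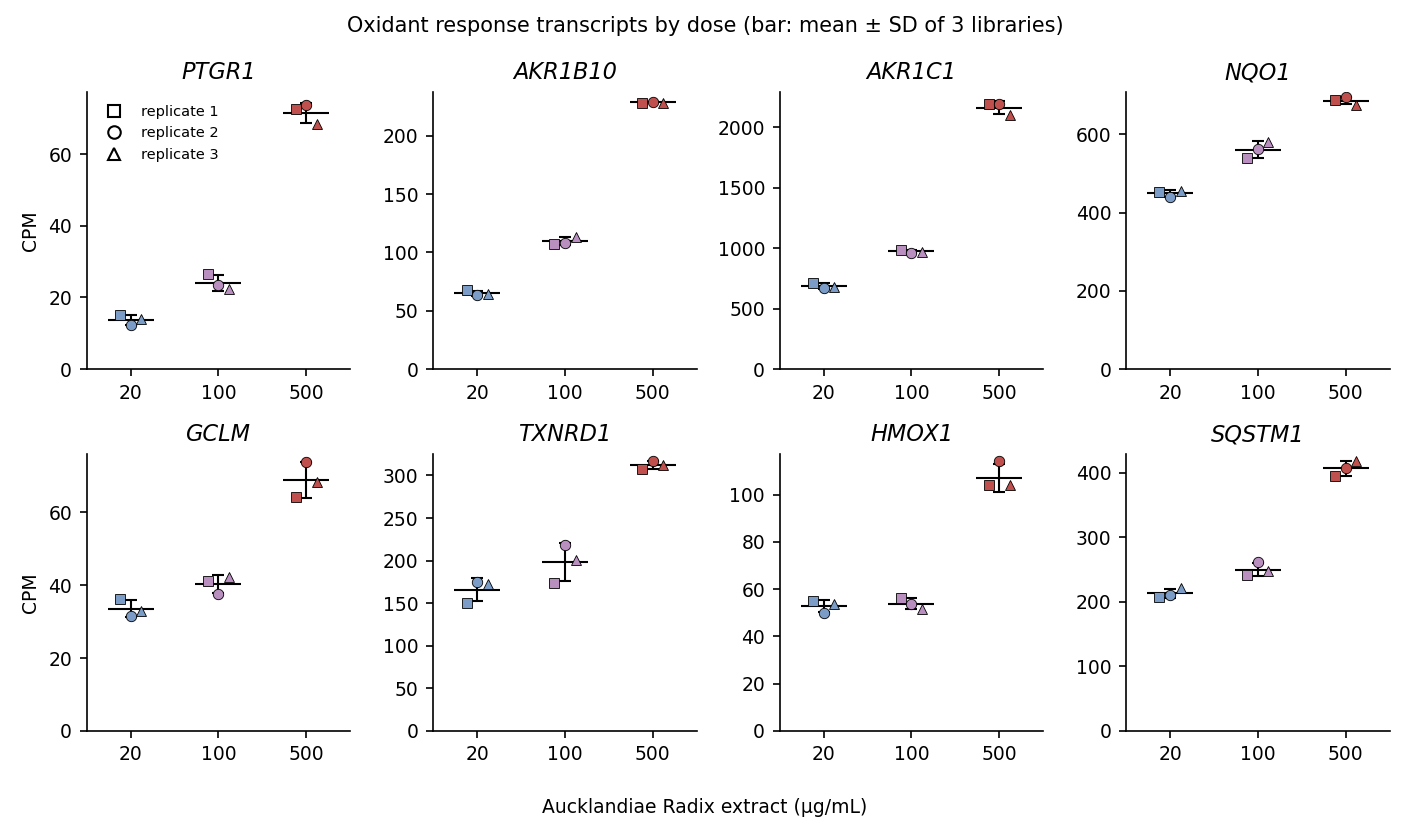
CPM of 8 oxidant response transcripts (vertical axis) at 20, 100 and 500 µg/mL of Aucklandiae Radix extract (horizontal axis); each symbol is a library, and bars give the mean ± SD of 3 libraries. AKR1B10 and AKR1C1 were already higher at 100 µg/mL, whereas HMOX1 stood at a mean of 53.8 CPM at 100 and 52.9 CPM at 20 µg/mL and at 107 CPM at 500 µg/mL.

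The sensor and the factor of this pathway moved in opposite directions at the transcript level. NFE2L2 had 167, 170 and 169 CPM at the high dose, against 238, 200 and 219 CPM at the low dose (-0.38 ± 0.07, edgeR adjusted p = 3e-05). KEAP1 had 98.9, 95.3 and 95.6 CPM at the high dose, against 69.4, 83.7 and 83.2 CPM at the low dose (0.30 ± 0.06, edgeR adjusted p = 0.00039). The libraries of the doses did not overlap for either gene, which was so for 30.1% of all tested genes. NFE2L2 lies opposite AGPS, and since the strand setting of the counting is not given, reads of such antisense partners cannot be separated. The same holds below for EPHX1 with TMEM63A, KIF20A with CDC23 and BRD8, TYMS with ENOSF1, FADS2 with FADS1, DEPP1 with RASSF4 and MAFK with TMEM184A. The other 8 tested regulators did not pass; of all 10, 4 had an unadjusted p under 0.05 with edgeR and 2 passed with DESeq2. BACH1, a repressor that competes for the same elements, was at 0.23 ± 0.09 (edgeR adjusted p = 0.063) and MAFK, a small MAF partner, at 0.27 ± 0.14 (edgeR adjusted p = 0.19). With a GC covariate BACH1 passed as higher (edgeR adjusted p = 0.011), and so it did under some other alternatives. Without the filter on low counts MAFK passed as higher too (edgeR adjusted p = 0.031).

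Of 16 tested glutathione genes 9 rose and 1 fell, with a median of 0.22. GCLM, the regulatory subunit of the enzyme that makes the glutathione precursor, had 64.1, 73.9 and 68.3 CPM at the high dose, against 36.1, 31.6 and 32.8 CPM at the low dose (1.03 ± 0.08, edgeR adjusted p = 1e-14). Its catalytic partner GCLC rose by 0.67 ± 0.06, GSR, which regenerates reduced glutathione, by 0.48 ± 0.04, and SLC7A11, the cystine importer, by 0.51 ± 0.08. All 4, which are the members with the smallest p, had high-dose libraries above every low-dose library. Of the 16 tested members 9 lay wholly higher and 1 wholly lower, against 15.3% and 14.8% of all tested genes. The count of called members was 7 higher and 0 lower without replicate 1 of the low dose. With replicate 1 or 3 of the high dose left out, 0 were called lower.

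Of the thioredoxin and peroxiredoxin list, 4 of 16 tested members rose and 2 fell, and 1 fell without replicate 3 of the high dose or replicate 1 of the low dose. SRXN1, sulfiredoxin, which repairs oxidised peroxiredoxins, had 166, 164 and 166 CPM at the high dose, against 79.5, 87.4 and 93.0 CPM at the low dose (0.93 ± 0.05, edgeR adjusted p = 1.2e-19). TXNRD1, thioredoxin reductase, whose promoter stretch is printed above, had 308, 317 and 312 CPM at the high dose, against 150, 175 and 173 CPM at the low dose (0.91 ± 0.06, edgeR adjusted p = 5e-17). TXNIP, which binds and inhibits thioredoxin, fell by 0.59 on the log2 scale, with 33.8, 25.1 and 23.7 CPM at the high dose and 46.1, 40.6 and 38.1 CPM at the low dose. PRDX1, a peroxidase of this system, rose by 0.39 ± 0.07. The other 10 tested members did not pass the test.

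NADPH feeds all of these reductions. In the list of pentose phosphate and NADPH enzymes 5 of 11 tested members rose and 2 fell. TKT and TALDO1, which rearrange sugars in the later steps of the pathway, rose by 0.31 ± 0.04 and 0.43 ± 0.06 on the log2 scale. The libraries of the doses did not overlap for either gene, both named for their small p. Of the 11 tested members 6 lay wholly higher and 3 wholly lower, against 15.3% and 14.8% of all tested genes.

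Heme and iron genes rose for 10 of 18 tested members and fell for 1, with a median of 0.28. ALAS1, the first and rate-limiting enzyme of heme synthesis in liver, had 65.7, 72 and 72.7 CPM at the high dose, against 40.5, 41.2 and 40.4 CPM at the low dose (0.79 ± 0.05, edgeR adjusted p = 2.3e-17). HMOX1, which degrades heme, had 104, 114 and 104 CPM at the high dose, against 55.0, 49.9 and 53.9 CPM at the low dose (1.02 ± 0.06, edgeR adjusted p = 4.3e-17), and the vehicle averaged 55.6 CPM. Both the making and the breakdown of heme were thus represented among the higher transcripts. FECH, which inserts iron into the ring, rose by 0.53 ± 0.06 and the porphyrin transporter ABCB6 by 0.78 ± 0.08. Ferritin, the iron store, summed over FTH1 and FTL to 12613 ± 672 CPM at the high dose and 8247 ± 1570 CPM at the low dose.

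Conjugation genes rose for 6 of 19 tested members and fell for 2, or for 1 without replicate 2 of the high dose. GSTA2, a glutathione transferase, had 34.5, 38.1 and 32.6 CPM at the high dose, against 10.8, 6.19 and 7.43 CPM at the low dose (2.09 ± 0.16, edgeR adjusted p = 2.1e-14). EPHX1, microsomal epoxide hydrolase, rose by 0.73 ± 0.07 and GSTA1 by 1.40 ± 0.14. Over the 3 GSTA genes, near-identical copies included, the sum was 179 ± 11.4 CPM at the high dose and 71.7 ± 12.6 CPM at the low dose. UGT2B10, a glucuronosyltransferase, fell by 0.71 on the log2 scale, and the UGT2B genes together held 55 ± 3.35 CPM at the high dose and 82.8 ± 3.28 CPM at the low dose.

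Of 10 tested efflux pumps 6 rose and 1 fell, with a median of 0.41 and the same counts without replicate 1 of the low dose. ABCC3, which exports conjugates across the basolateral membrane, had 149, 148 and 144 CPM at the high dose, against 61.8, 59.6 and 61.2 CPM at the low dose (1.27 ± 0.05, edgeR adjusted p = 7.9e-24). ABCC2, its counterpart at the bile canaliculus, rose by 0.79 ± 0.04, ABCC1 by 0.57 ± 0.06 and ABCC4 by 0.63 ± 0.08. The multidrug pump gene ABCB1, named here after its values were seen, was at -0.06 and did not pass the test. CYP1A1, the classical target of the aryl hydrocarbon receptor, had 13.9, 18.1 and 17.0 CPM at the high dose, against 7.20, 7.66 and 7.69 CPM at the low dose (1.12 ± 0.09, edgeR adjusted p = 2.5e-13). It was the single member of 8 tested targets of that receptor that rose, and 2 fell, of which NFE2L2 is one.

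SQSTM1, the autophagy receptor p62, which binds KEAP1 and is itself an NRF2 target, had 395, 408 and 418 CPM at the high dose, against 208, 210 and 221 CPM at the low dose (0.93 ± 0.04, edgeR adjusted p = 7.9e-24). It lies opposite MGAT4B. Of 18 autophagy genes 7 rose and 0 fell, while 7.77% of all tested genes rose and 7.14% fell. TFE3, a transcription factor of lysosome formation, rose by 0.49 ± 0.05, the mitophagy receptor BNIP3 by 0.38 ± 0.07 and GABARAPL1, a membrane tag of autophagosomes, by 0.36 ± 0.08. Lysosomal genes rose for 10 of 22 and fell for 0, with a median of 0.18. The protease CTSB rose by 0.45 ± 0.04, the galactosidase GLA by 0.55 ± 0.07 and the activator precursor PSAP by 0.34 ± 0.05. Proteasome subunits rose for 6 of 32 and fell for 0, with a median of 0.12.

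**Figure D2:**
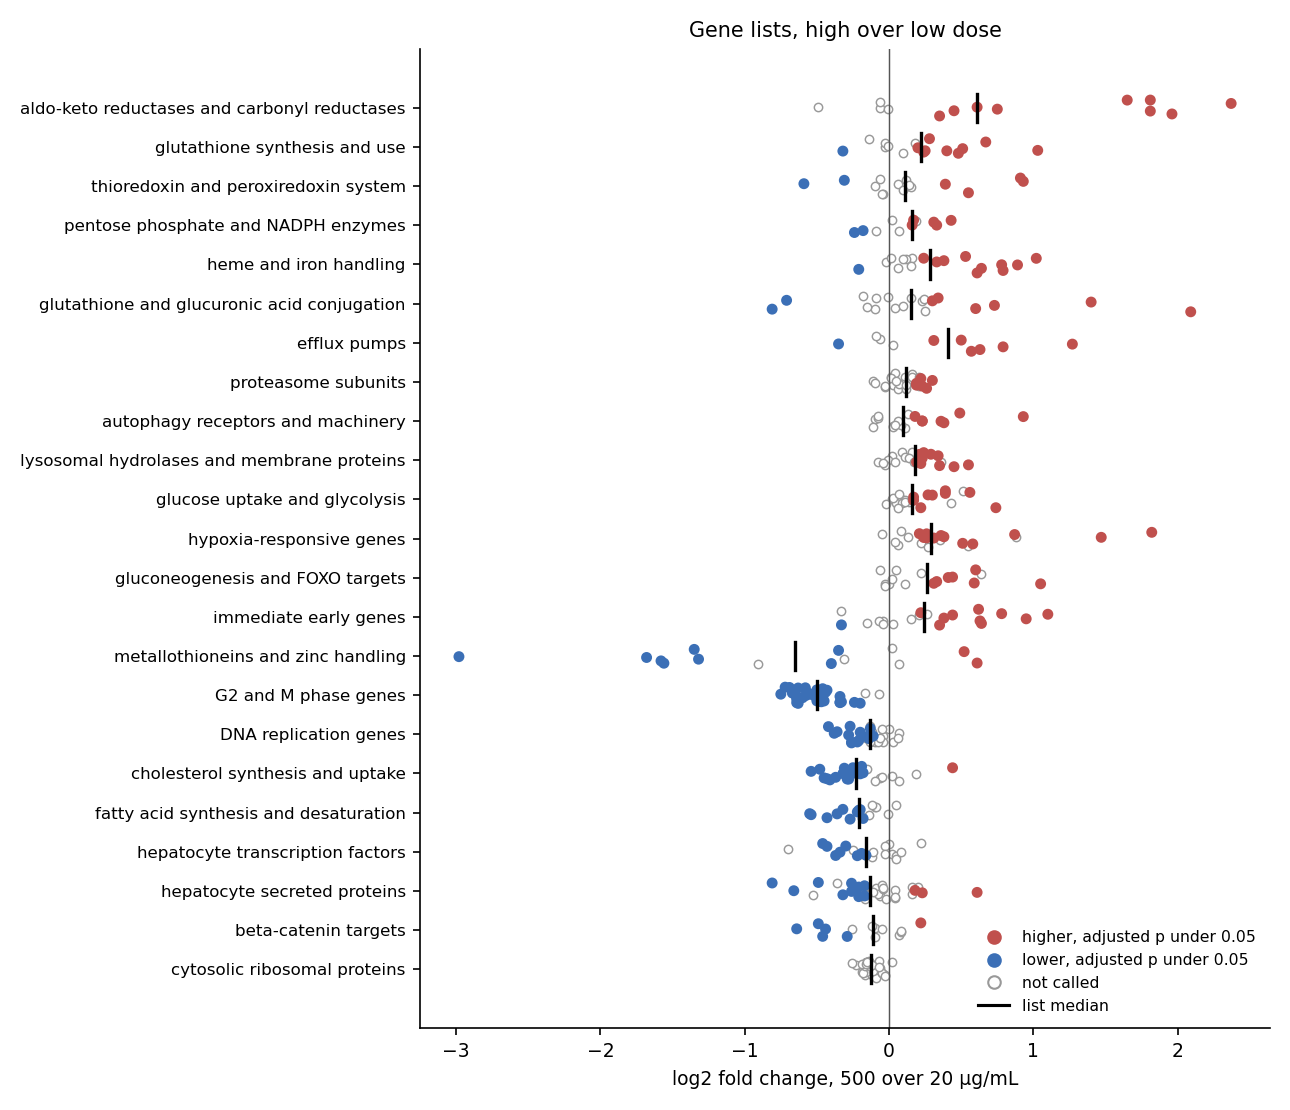
Log2 fold change, 500 over 20 µg/mL (horizontal axis), of each tested member of 23 of the 47 gene lists (rows); filled points passed the edgeR test at an adjusted p under 0.05, open points did not, and black bars are list medians. The G2 and M phase row lies wholly left of 0 with a median of -0.50, and the carbonyl reductase row reaches 2.37 at PTGR1.

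Metallothioneins, small cysteine-rich proteins that hold zinc and copper, fell. MT1G had 14.3, 16.9 and 14.4 CPM at the high dose, against 64.8, 37.7 and 43.5 CPM at the low dose (-1.68 ± 0.23, edgeR adjusted p = 1.6e-07). MT2A had 61.8, 67.7 and 56.6 CPM at the high dose, against 210, 118 and 137 CPM at the low dose (-1.32 ± 0.23, edgeR adjusted p = 2.7e-05). In each of the 5 named genes the highest low-dose value was that of replicate 1. Every high-dose library lay below every low-dose library, which the rule for naming the largest falls required. MT1F was at -1.58 ± 0.21, MT1E at -1.56 ± 0.22 and MT1X at -1.35 ± 0.14. Without replicate 1 of the low dose MT1G stood at -1.42, MT1F at -1.32, MT1E at -1.30, MT1X at -1.23 and MT2A at -1.04, all called. The part of that library's other features in these values was not tested. Since reads of these copies may be split uncertainly, their sum is the safer value, 126 ± 12.6 CPM at the high dose and 341 ± 98.3 CPM at the low dose over 7 genes, with 409 ± 13.4 CPM in the vehicle. MT1M, a rarer copy named after its values were seen, had 0.226, 0 and 0.112 CPM at the high dose, against 0.984, 0.851 and 1.02 CPM at the low dose. Zinc carriers were mixed. The importer gene SLC39A10 rose by 0.61 ± 0.08, and of all 14 tested genes of metallothioneins and zinc handling 8 fell and 2 rose.

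**Figure D3:**
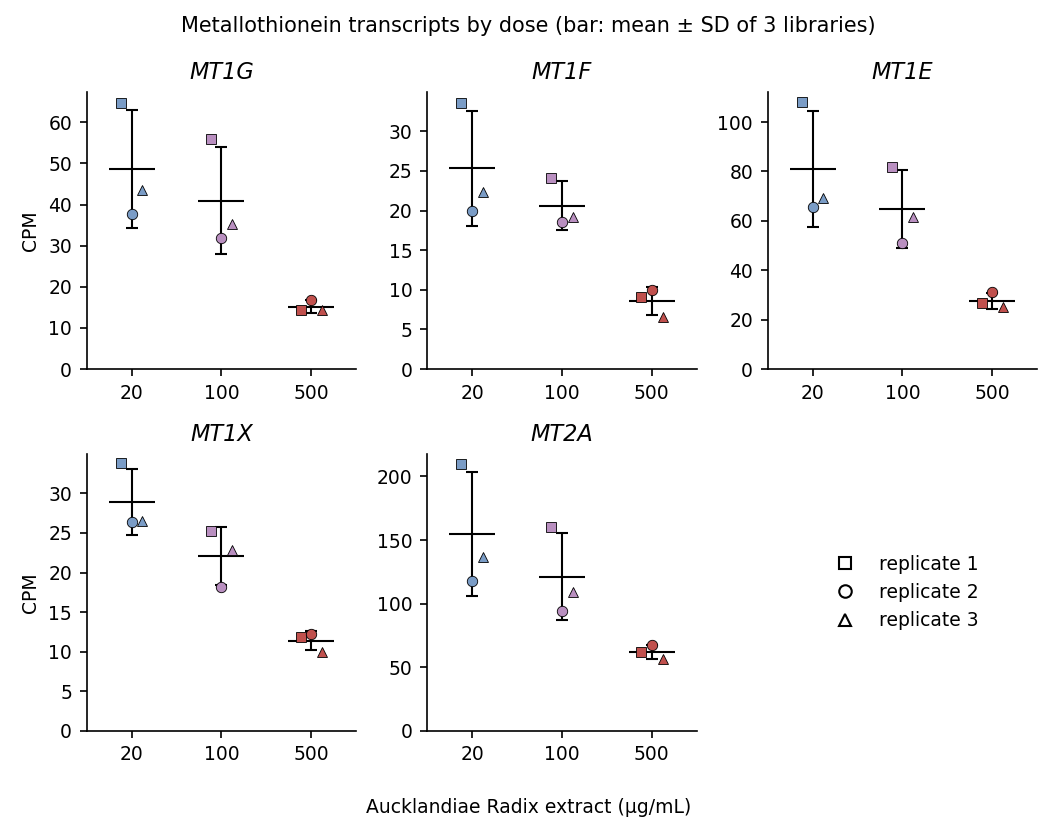
CPM of 5 metallothionein transcripts (vertical axis) at 20, 100 and 500 µg/mL (horizontal axis); symbols tell replicate numbers apart, and bars give the mean ± SD of 3 libraries. The squares show that replicate 1 was the highest library at 20 and at 100 µg/mL in every panel. All 3 libraries at 500 µg/mL lay below the rest, which the naming rule required against 20 µg/mL only.

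Genes of the G2 and M phases fell almost without exception. Of 36 tested members 34 fell and 0 rose, with a median of -0.50, and all 36 had every high-dose library below every low-dose library, against 14.8% of all tested genes. TOP2A, the topoisomerase that untangles replicated chromosomes, had 359, 341 and 353 CPM at the high dose, against 567, 593 and 576 CPM at the low dose (-0.72 ± 0.05, edgeR adjusted p = 5.8e-16). PLK1, the kinase of mitotic entry and spindle assembly, had 183, 196 and 187 CPM at the high dose, against 315, 289 and 299 CPM at the low dose (-0.67 ± 0.06, edgeR adjusted p = 2.8e-13). KIF20A, a kinesin of cytokinesis, was at -0.63 ± 0.05, PRC1, which bundles spindle microtubules, at -0.60 ± 0.05, and CCNB1, the mitotic cyclin, at -0.48 ± 0.05. The members that did not pass were BUB3 at -0.17 ± 0.06 and MYBL2 at -0.07 ± 0.05, named after their values were seen. BUB3 passed as lower under some alternatives, such as a replicate block in the fit of all libraries (edgeR adjusted p = 0.034). The count was 31 without replicate 1 of the low dose. CCNB2, a second mitotic cyclin chosen after its values were seen, averaged 34.9 ± 2.09 CPM at the high dose and 54.3 ± 5.74 CPM at the low dose (-0.64 ± 0.07, edgeR adjusted p = 1.4e-09).

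DNA replication genes moved less. Of 30 tested members 14 fell and 0 rose, with a median of -0.13. MCM7 and MCM3, parts of the replicative helicase, were at -0.38 ± 0.05 and -0.28 ± 0.04, the polymerase subunit gene POLA1 at -0.36 ± 0.06 and TYMS, which makes thymidylate, at -0.42 ± 0.07. CDKN1A, the inhibitor of cyclin-dependent kinases known as p21, had 90.5, 109 and 104 CPM at the high dose, against 64.6, 72.3 and 77.1 CPM at the low dose (0.51 ± 0.08, edgeR adjusted p = 4.5e-06). GDF15, a stress cytokine, had 145, 197 and 189 CPM at the high dose, against 82, 92.3 and 97.4 CPM at the low dose (0.97 ± 0.15, edgeR adjusted p = 1.5e-06). Of 22 p53 targets 3 were higher, CDKN1A and GDF15 among them, and 1 was lower, against 7.77% and 7.14% of all tested genes. Without replicate 3 of the high dose the counts were 2 and 0, and 0 were lower without its replicate 2.

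Lipid synthesis genes were lower. Of 26 cholesterol genes 17 fell and 1 rose, with a median of -0.23. HMGCS1, which makes the precursor of mevalonate, had 244, 234 and 232 CPM at the high dose, against 337, 330 and 321 CPM at the low dose (-0.48 ± 0.05, edgeR adjusted p = 1.4e-09). SQLE, which oxidises squalene, was at -0.32 ± 0.04. The libraries of the doses did not overlap for either gene. The single member that rose was PMVK, at 0.44 ± 0.15 (edgeR adjusted p = 0.032). Its edgeR adjusted p was 0.2 without replicate 3 of the high dose, and 0.22 and 0.096 without replicates 1 and 2 of the low dose. The count of members called lower was 15 without replicate 1 of the low dose.

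In the fatty acid synthesis list 10 of 17 genes were lower and 0 higher. FADS2, a desaturase, was at -0.54 ± 0.04, the elongase ELOVL6 at -0.55 ± 0.05, and GPAM and DGAT2, which attach fatty acids to glycerol, at -0.43 ± 0.05 and -0.32 ± 0.04. On the side of fat use CPT1A, the gate of fatty acid entry into mitochondria, had 112, 109 and 117 CPM at the high dose, against 39.9, 52.1 and 48.2 CPM at the low dose (1.27 ± 0.09, edgeR adjusted p = 9.3e-15). FABP1, the liver fatty acid binding protein, had 52.6, 41.7 and 40.0 CPM at the high dose, against 115, 75.9 and 79.0 CPM at the low dose (-1.01 ± 0.18, and -0.79 without replicate 1 of the low dose). The PPARA and fatty acid oxidation list as a whole was divided, with 5 of 18 members higher and 3 lower.

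Glucose and hypoxia genes leaned upward. Of 23 glycolysis genes 9 rose and 0 fell, with a median of 0.16. GPI, which follows glucose entry, rose by 0.30 ± 0.04 and the aldolase ALDOA by 0.39 ± 0.06. In the hypoxia-responsive list 12 of 22 rose and 0 fell, with a median of 0.29. EPAS1, the hypoxia factor HIF-2 alpha, had 314, 319 and 324 CPM at the high dose, against 214, 232 and 229 CPM at the low dose (0.51 ± 0.04, edgeR adjusted p = 1e-12). NDRG1, a stress-responsive gene, had 109, 79.9 and 84.6 CPM at the high dose, against 57.0, 46.5 and 46.2 CPM at the low dose (0.87 ± 0.10, edgeR adjusted p = 2.7e-09). VEGFA, a classical target of the same factors named after its values were seen, was at -0.05. The hypoxia count was 7 without replicate 1 of the high dose and 8 without replicate 3 of the low dose.

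FOXO and gluconeogenesis genes rose for 7 of 16 members and fell for 0, and for 4 without replicate 1 of the low dose. IGFBP1, a secreted binder of insulin-like growth factors, had 135, 79.9 and 79.2 CPM at the high dose, against 57.8, 40.8 and 42.8 CPM at the low dose (1.05 ± 0.17, edgeR adjusted p = 7.7e-06). Replicate 1 was the highest library of both doses, and the log2 fold change was 1.22 without that of the low dose. DEPP1, an autophagy regulator, rose by 0.60 ± 0.10 and PPARGC1A, a coactivator of gluconeogenesis, by 0.41 ± 0.08. Of 20 immediate early genes 10 rose and 1 fell, and 7 rose and 0 fell without replicate 3 of the high dose. None fell without replicate 1 of the low dose. KLF6 rose by 0.44 ± 0.06, ZFP36, which promotes decay of cytokine mRNAs, by 0.95 ± 0.14, and the AP-1 subunits JUN and FOSL1 by 0.64 ± 0.09 and 0.62 ± 0.13.

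Some hepatocyte genes fell, and most did not pass the test. Of 21 hepatocyte transcription factors 8 fell and 0 rose, and 5 fell without replicate 2 of the high dose or without replicate 3 of the low dose. FOXA1 was at -0.46 ± 0.07 and NR2F2 at -0.37 ± 0.08. Of 34 secreted proteins 10 fell and 3 rose, and 7 fell and 1 rose without replicate 1 of the high dose. The count that rose was also 1 without replicate 2 of either dose. AFP, the fetal albumin relative that marks this tumour line, had 1748, 1641 and 1608 CPM at the high dose, against 3458, 2576 and 2748 CPM at the low dose (-0.81 ± 0.10, edgeR adjusted p = 5e-08, and -0.68 without replicate 1 of the low dose). The fibrinogen gene FGB was at -0.49 ± 0.07. ALB, albumin, was at -0.26 ± 0.09 (edgeR adjusted p = 0.032). It did not pass without that library (-0.17, edgeR adjusted p = 0.27), nor without any 1 high-dose library (edgeR adjusted p = 0.062 to 0.099). Of 14 beta-catenin targets 5 fell and 1 rose, and 0 rose without replicate 2 or 3 of either dose. The members that fell included NKD1 at -0.49 ± 0.05, the stem cell receptor LGR5 at -0.44 ± 0.05 and the inhibitor DKK1 at -0.46 ± 0.09.

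With edgeR and its filter on low counts 0 of 30 cytosolic ribosomal protein genes passed (2 at an unadjusted p under 0.05, and 1 with DESeq2), with a median of -0.12, and 5 were called lower without the filter on low counts. Likewise 0 of 13 mitochondrially encoded mRNAs passed (0 at an unadjusted p under 0.05, and 0 with DESeq2), with a median of -0.20. Without that filter 9 of the 13 were called lower, and 1 was in the fit of the 6 libraries alone with a replicate block. Of 25 nuclear respiratory chain genes 1 fell. Of 20 endoplasmic reticulum genes 6 fell and 2 rose (1 without replicate 1 of the low dose), with the chaperone HSPA5 at -0.29 ± 0.04 and the stress sensor ERN1 at 0.40 ± 0.06. Heat shock chaperones did not rise as a group, with 1 of 21 higher and 4 lower (2 lower without replicate 1 of the high dose or replicate 3 of the low dose). Of 13 NF-kB and cytokine genes 3 were lower and 0 higher. Over all tested genes 7.77% were higher and 7.14% lower.

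By the rule for named genes, the 15 largest rises included genes outside these lists. SLC5A11, a sodium-coupled inositol transporter, had 11.5, 10.3 and 11.0 CPM at the high dose, against 2.11, 2.65 and 2.41 CPM at the low dose (2.20 ± 0.15, edgeR adjusted p = 7.7e-16). IL6R, a receptor subunit for interleukin 6, had 59.2, 60.3 and 61.8 CPM at the high dose, against 20.7, 27.2 and 26.3 CPM at the low dose (1.29 ± 0.06). Both were separated from the low dose by several times the spread of either group, though the rule admitted only genes whose libraries did not overlap. EMP3, a membrane protein, was at 1.39 ± 0.18, GCKR, the regulator of glucokinase, at 1.24 ± 0.10, and GPAT3, an acyltransferase of triglyceride synthesis, at 1.23 ± 0.10. PALM2AKAP2, which overlaps PALM2 and AKAP2, was at 1.35 ± 0.47 (edgeR adjusted p = 0.042). It no longer passed when replicate 2 or 3 of the high dose or replicate 1 or 2 of the low dose was left out (edgeR adjusted p = 0.075 to 0.2). Among the 15 largest falls were SLC13A3, a dicarboxylate transporter that overlaps TP53RK, with 29.5, 28.4 and 29.6 CPM at the high dose, against 62.7, 62.5 and 63.7 CPM at the low dose (-1.11 ± 0.05), and SLC6A14, an amino acid transporter, at -1.05 ± 0.07. The sodium channel gene SCN1A was at -1.18 ± 0.09, the sulfatase ARSI at -1.15 ± 0.08, TTYH1, a membrane protein of the tweety family, at -1.10 ± 0.09, and HOXD1, a homeobox gene opposite HAGLR, at -1.09 ± 0.13. MBL2, the mannose-binding lectin, was at -0.91 ± 0.10, PRR36 at -0.85 ± 0.15 and CEL, a bile-salt lipase, at -0.85 ± 0.12.

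The medium dose placed these changes along the series. Between 100 and 20 µg/mL 57 genes were called (0.345%), 30 higher (0.182%) and 27 lower (0.163%). The count was 35 without replicate 2 of the medium dose, 27 without its replicate 3 and 26 without replicate 3 of the low dose. It was 165 without the filter on low counts and 1 when the 6 libraries were fitted alone, so the medium-dose calls given here rest on the spread shared by all 60 libraries. Between 500 and 100 µg/mL it was 2092 (12.7%), 1118 higher (6.77%) and 974 lower (5.9%). These comparisons share libraries with the one above, so their values are set side by side only. AKR1B10 was at 0.75 ± 0.05 between medium and low dose (edgeR adjusted p = 1.4e-14) and PTGR1 at 0.79 ± 0.09 (edgeR adjusted p = 6.7e-08). NQO1 was at 0.32 ± 0.04, SQSTM1 at 0.23 (edgeR adjusted p = 0.00045) and TXNRD1 at 0.25 ± 0.06 (edgeR adjusted p = 0.029). GCLM was at 0.26 ± 0.08 and did not pass (edgeR adjusted p = 0.19). HMOX1 was at 0.02 ± 0.07 and CYP1A1 at -0.09 ± 0.10, neither of them called. In the fit of all libraries AKR1B10 and PTGR1 thus rose at each step, while HMOX1 and CYP1A1 were called between 500 and 20 µg/mL and not at 100 µg/mL. Of the mitotic genes, 0 of 36 were called by edgeR between medium and low dose (0 at an unadjusted p under 0.05, and 0 with DESeq2), with a median of 0.04, and PLK1 was at 0.03 ± 0.06. For the metallothionein and zinc list the median was -0.21 with 1 member called. Among the 15 largest rises 10 were also called between medium and low dose, and among the 15 largest falls 5 were.

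**Figure D4:**
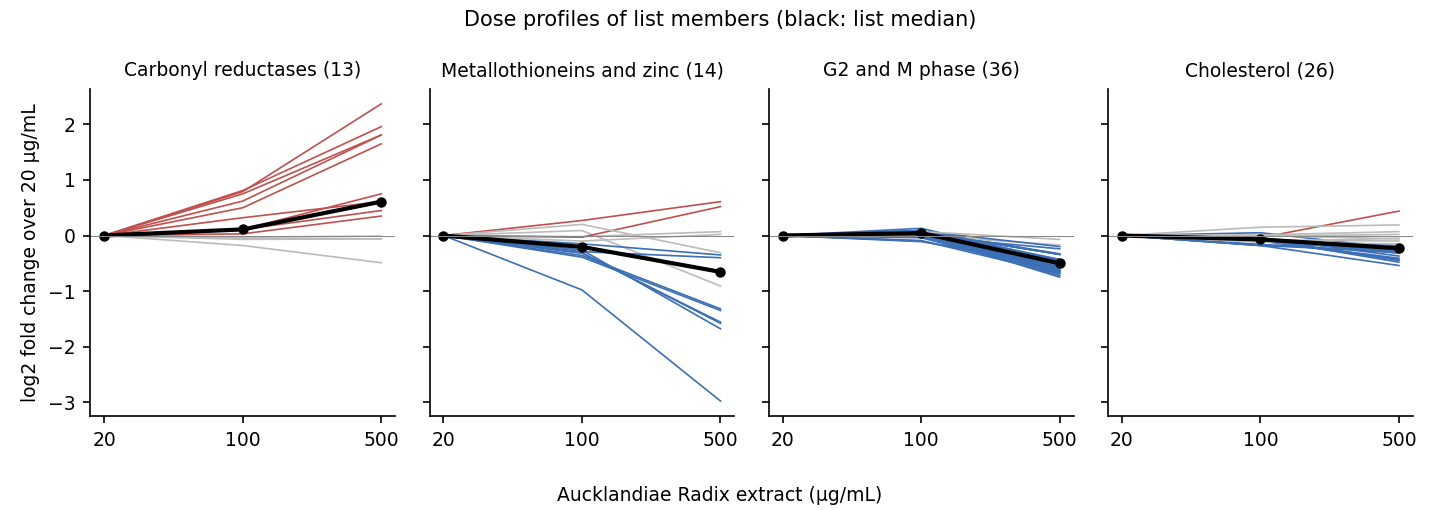
Log2 fold change over the low dose (vertical axis), from the edgeR fit, of every tested member of 4 lists at 20, 100 and 500 µg/mL (horizontal axis), with the low dose set to 0; red and blue lines passed the test as higher and lower at 500 over 20 µg/mL, grey lines did not, and the black line joins list medians. The median of the 36 G2 and M phase genes was 0.04 at 100 µg/mL and -0.50 at 500 µg/mL.

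The same contrast was then set against those of 2 other extracts, which use no library of Aucklandiae. Schisandrae Fructus was given at the same doses, in another code set, and Polygalae Radix, of the same code set as Aucklandiae, at 450 and 18 µg/mL. The high-over-low change of Aucklandiae differed from that of Schisandrae for 852 genes (5.16%), 481 higher (2.91%) and 371 lower (2.25%), and from that of Polygalae for 1126 genes (6.82%), 691 higher (4.18%) and 435 lower (2.63%; edgeR test of the difference). On its own, Schisandrae changed 1650 genes (9.99%), 5.19% higher and 4.8% lower, and Polygalae 649 genes (3.93%), 1.23% higher and 2.7% lower. The changes of PTGR1 were 2.37 ± 0.09 with Aucklandiae, 0.20 ± 0.10 with Schisandrae and 0.42 ± 0.09 with Polygalae, and both differences passed (edgeR adjusted p = 4.6e-17 and 6.8e-16). Those of HMOX1 were 1.02 ± 0.06 with Aucklandiae, -0.04 ± 0.07 with Schisandrae and 0.15 ± 0.06 with Polygalae (edgeR adjusted p = 7.4e-12 and 2.1e-09). AKR1B10 rose with all 3 extracts, by 1.81, 1.44 and 1.11, and the differences were smaller (0.37 ± 0.07 and 0.70 ± 0.07). TXNRD1 also rose more than with each of them, by 0.42 ± 0.08 and 0.38 ± 0.08.

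The fall of mitotic genes was larger with Aucklandiae. In the G2 and M phase list the change of 25 of 36 members lay below that with Schisandrae and of 27 of 36 below that with Polygalae, and of 0 above either. PLK1 was at -0.67 ± 0.06 with Aucklandiae, -0.20 ± 0.06 with Schisandrae and -0.25 ± 0.06 with Polygalae. Cholesterol genes differed in opposite senses. Schisandrae lowered 22 of the 26 with a median of -0.54, and the change of Aucklandiae lay above that of Schisandrae for 11 members, while it lay below that of Polygalae for 11 and above for 1. HMGCS1 was at -0.48 ± 0.05 with Aucklandiae, -0.77 ± 0.05 with Schisandrae and 0.01 ± 0.05 with Polygalae. MT1X was at -1.35 ± 0.14 with Aucklandiae, -2.09 ± 0.16 with Schisandrae and -0.80 ± 0.13 with Polygalae, and the difference passed against Schisandrae (edgeR adjusted p = 0.028) and not against Polygalae (edgeR adjusted p = 0.075). The MT1X difference from Schisandrae no longer passed when replicate 1 or 2 of the Aucklandiae high dose, replicate 2 or 3 of its low dose, replicate 1 of the Schisandrae high dose or replicate 2 or 3 of its low dose was left out (edgeR adjusted p = 0.054 to 0.16). That of HMGCS1 (edgeR adjusted p = 0.012) had an edgeR adjusted p of 0.067 without replicate 2 of the Schisandrae low dose and 0.074 without a filter on low counts. For 7 of 20 immediate early genes the change lay below that with Schisandrae, and for 3 it lay above that with Polygalae.

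**Figure D5:**
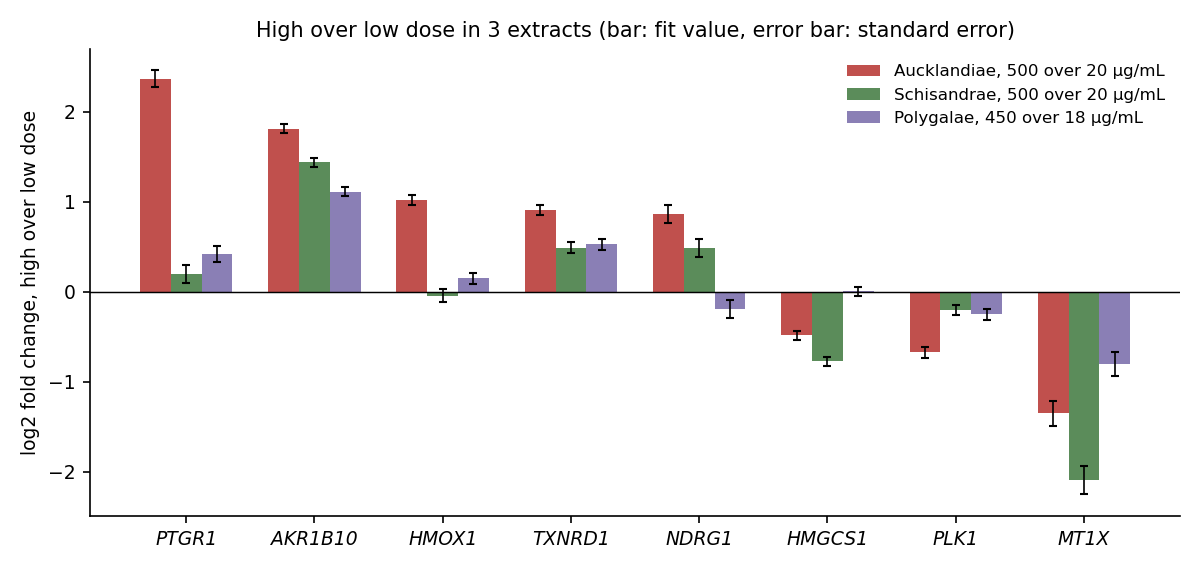
Log2 fold change of the high over the low dose (vertical axis) for 8 genes with Aucklandiae, Schisandrae and Polygalae; bars are values of the edgeR fit and error bars their standard errors. PTGR1 and HMOX1 stand high with Aucklandiae (2.37 and 1.02), and HMGCS1 is lowest with Schisandrae (-0.77).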

How the data were processed

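RNA of HepG2 cells was sequenced in 60 libraries, 3 for each of 20 groups, and all entered a single fit. Per the submitters' processing notes, reads were checked with FastQC 0.11.9, trimmed with Trim Galore 0.6.5, aligned with STAR 2.7.3a to hg38 (GRCh38) and quantified with RSEM 1.3.3. The deposited table holds RSEM expected counts, as deposited by the authors without further scaling, judged from the values, and 10.32% of its values are not whole. No source used here gives the annotation release or the strand setting of the counting. Symbols and coordinates were taken from GENCODE release 29 (GRCh38), which matched 57055 of 60675 gene identifiers.

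Expected counts were rounded, scaled by TMM (factors 0.92 to 1.079) and filtered with filterByExpr by group, which left 16517 genes and removed 0.0532% of the counts. Each contrast was tested, 2-sided, with edgeR 4.0.16 (R 4.3.3), by its quasi-likelihood test with 20 group terms. Benjamini-Hochberg adjustment covered every tested gene, and an adjusted p under 0.05 counted as a call. CPM are counts per 1e6 counts after TMM scaling and are not divided by gene length, so levels are not compared between genes. The sums of cell type markers are the exception, taken per 1e6 of all counts without TMM scaling. The standard error is the absolute log2 fold change divided by the square root of the F statistic. DESeq2 1.42.0, other scalings and filters, a GC covariate, replicate blocks and leaving out each library were tried as alternatives. Counts of all 60 libraries were also simulated from the group means, with the high-dose means replaced by those of the low dose. There 16444 genes were tested and 50 were changed at each size. Of the smallest changes (0.32 on the log2 scale) 48% were called, of 1.5-fold changes 86%, of 2-fold 98% and of 4-fold 100%. Of 175 calls 9 were false. Since 2462 genes were called in the real data, these shares need not hold for them.

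The gene lists and the comparisons were chosen with earlier results of these data known. The named genes were the 15 largest rises and the 15 largest falls among called protein-coding genes with a mean of at least 5 CPM at either dose and no overlap of libraries, the members of each list with the smallest p (up to 4), and a set of genes chosen for their known roles. Any other gene is said to have been named after its values were seen. Per the labels, the vehicle is DMSO, and its concentration differs between the labels and the design text. Some members of the lists are counted in them but not reported here by name.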

Additional observations from a re-analysis of the deposited data

Results flagged for a closer look

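Changes between the high and the low dose were flagged where they differed between Aucklandiae and another extract by the edgeR test of the difference itself. Against Schisandrae the differences (Aucklandiae change minus Schisandrae change, log2) were 2.17 for PTGR1, 1.06 for HMOX1, 0.74 for MT1X, 0.42 for TXNRD1, 0.37 for AKR1B10, 0.29 for HMGCS1 and -0.48 for PLK1, and 852 genes differed in all. MT1X and HMGCS1 fell with both extracts, and less with Aucklandiae in this fit, though both differences failed the test when some single libraries were left out. Against Polygalae, which was given at lower doses, the differences were 1.95 for PTGR1, 1.06 for NDRG1, 0.86 for HMOX1, 0.70 for AKR1B10, 0.38 for TXNRD1, -0.42 for PLK1 and -0.49 for HMGCS1, and 1126 genes differed in all. The extracts are whole mixtures, and Schisandrae belongs to another set of sample codes, so an effect of the code set on the difference from Schisandrae was not tested.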

How the results depend on the processing

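The count of 2462 genes between high and low dose stayed within 1.5 times under other scaling (2454), filters (2157 without a filter, 2494 with a stricter one), a GC covariate (2890), removal of the 4 libraries of low GC slope (2659) and DESeq2 (2398), and was 1885 to 2185 when each library was left out. It was 1596 when the 6 libraries were fitted alone. The count of 57 between medium and low dose was less stable: 165 without a filter, 35 without the 4 libraries of low GC slope, 1 from the 6 libraries alone, and 26 to 46 when each library was left out. It was 23 without replicate 1 of both doses, an alternative chosen after seeing the data. Between high and medium dose it was 1309 from the 6 libraries alone and 1457 to 2052 with each library left out. Differences from Schisandrae numbered 680 to 806 and those from Polygalae 863 to 1074 with each library left out, and called list members 270 to 280. Fits of fewer libraries have fewer degrees of freedom, and otherwise the cause was not tested. Leaving out 1 of 3 libraries leaves the spread to be pooled over all groups.

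With a replicate block the count was 2721 in the fit of all libraries and 1230 in the fit of the 6 libraries alone, which was a fit chosen after seeing the data, and 61 between medium and low dose in the fit of all libraries. Same-numbered high- and low-dose libraries did not deviate together (correlations of -0.028, -0.052 and 0.04), nor did high and medium ones (-0.036, -0.058 and -0.019). Medium and low ones correlated at 0.379 and 0.265 for replicates 1 and 2 and at 0.04 for replicate 3. In no comparison did every pair pass 0.1, so the numbers were not taken as pairs. Of 1984 values of named genes under alternatives, 1939 kept direction and side of the threshold. These values pool the high-over-low changes with the differences between extracts that were tested for some of the genes. The high-over-low change of CD14, which was not called, ranged from -0.08 to 0.13 when each library was left out. In simulated data of this depth and number of libraries 48% of changes of 0.32 on the log2 scale were called. The median size of the called changes was also 0.32, and changes of that size may have been missed. The simulation gave 175 calls and these data 2462, so the adjusted threshold differed. The share of 48% therefore need not hold here.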

Other observations

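Gene groups not described above gave mixed or few calls between high and low dose, where 7.77% of all tested genes were higher and 7.14% lower. Of 19 TGF-beta, YAP and matrix genes 6 were higher and 3 lower, and 1 was lower without replicate 1 of the high dose or replicate 3 of the low dose. Of 23 ATF4 and amino acid stress genes 4 were higher and 3 lower, and 2 were higher without replicate 1 of the low dose. Of 18 polyamine and one-carbon enzymes 3 were higher and 3 lower, and 1 was lower without replicate 3 of the low dose. Of 21 tubulin and actin genes 2 were higher and 4 lower, and of 18 interferon response genes 2 were higher and 2 lower, with 1 to 2 higher and 0 to 2 lower when each library was left out. Of 14 acute phase and complement genes 6 were lower and 2 higher. SULT1A transcripts, whose copies are near-identical, summed to 396 ± 19.6 CPM at the high dose and 233 ± 25.2 CPM at the low dose (SD, n = 3 each).

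Lysozyme (LYZ) made up most of the list of 9 leukocyte and macrophage markers, which summed to 953 to 996 CPM at the high dose and 1070 to 1087 CPM at the low dose. After TMM scaling, which those sums lack, LYZ averaged 885 CPM at the high dose and 1025 CPM at the low dose (-0.21 ± 0.05, edgeR adjusted p = 0.00045). CD68, a lysosomal protein abundant in macrophages, averaged 56.2 CPM at the high dose and 39.5 CPM at the low dose (0.50 ± 0.13, edgeR adjusted p = 0.004). Without replicate 2 of the low dose CD68 did not pass the test, and another gene overlaps it on the same strand. CD14 was at 1.94 CPM at the high dose and 1.91 CPM at the low dose, and PTPRC, CD3E and MARCO were at 0 in all 6 libraries. Fibroblast and stellate cell markers summed to 61.4 to 65.2 CPM at the high dose and 70.1 to 81.3 CPM at the low dose. Biliary and kidney epithelial markers summed to 515 to 548 CPM at the high dose and 546 to 583 CPM at the low dose.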
